A study of Mus musculus with 74 samples.

Results

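CD11b-positive cells from the sciatic nerve of SOD1-G93A mice, called nerve macrophages here after their label, were compared between end stage and the pre-symptomatic stage. The libraries were those that the labels assign to these stages in non-grafted mice, 4 at end stage and 3 before symptoms, which is 7 of the 74 libraries of the series. All mice were females of the strain mutant hSOD1-G93A (C57BL/6J), which carries human SOD1 with the G93A mutation, a cause of familial amyotrophic lateral sclerosis (ALS), beside the mouse's own Sod1. The end-stage mice had a mean age of 169.4 days, and each library held both sciatic nerves of 1 mouse. The pre-symptomatic mice had a mean age of 50.8 days, and each library pooled 4 nerves of 2 mice to reach enough cells. Stage, age and pooling therefore cannot be told apart, and neither can stage and library number, which was over 100 in every pre-symptomatic and 50 to 53 in the end-stage libraries. Nerves were dissociated in the cold without enzymes, freed of myelin on a Percoll gradient, and CD11b-bearing cells were taken with magnetic beads. The other 11 non-grafted nerve libraries give context: 3 at onset (mean age 105 days), 4 at the early symptomatic stage (152.6 days) and 4 at an age corresponding to end stage whose labels conflict, since the description reads WT while title and strain read G93A; they are called the libraries described as WT. G93A spinal cord microglia at the same 2 stages, 4 libraries each with 1 mouse per library, were the other tissue compared.

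Macrophages of the peripheral nerve sit among the axons in the endoneurium and in the epineurium, the outer sheath, and they take up debris when axons degenerate. In SOD1 mice motor axons withdraw from muscle before the cell bodies in the spinal cord die. Epineurial macrophages are known for genes of alternative activation such as Mgl2, Cbr2 and Retnla, while interferon-response, MHC and lysosomal genes mark other states. CD11b, the product of Itgam, is also carried by neutrophils and monocytes, which a selection on this antigen retains.

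The deposited values are FPKM, which scale mapped fragments to transcript length and to the total of the library. Levels are given in FPKM and changes on the scale of log2(FPKM + 1), which understates the change of a lowly expressed gene. S100a8, a calcium-binding protein of neutrophils, stood at 62869, 24808 and 55648 FPKM in pre-symptomatic replicates 1 to 3 and at 73049, 71188, 80759.6 and 44054 FPKM in end-stage replicates 1 to 4, so that neutrophil RNA was abundant in all 7 libraries. The macrophage genes Adgre1 (the F4/80 antigen) and Csf1r (the receptor of colony-stimulating factor 1) ranged from 22.1 to 138.6 FPKM and from 74.2 to 584 FPKM. The mean log2(FPKM + 1) over 14 macrophage identity genes, none of them at 0 throughout a group, was 4.96, 7.01 and 5.86 before symptoms and 4.67 to 6.05 at end stage. That over 18 neutrophil genes was 9.83 to 10.72 and 10.24 to 10.97. In such bulk samples fewer cells of a type and less RNA per cell cannot be told apart.

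Single libraries stood apart. Pre-symptomatic replicate 2 was the highest of the 7 in macrophage identity genes, in nerve surface (epineurial) macrophage genes (6.76, against 3.01 and 4.52 in replicates 1 and 3 and 2.00 to 3.85 at end stage) and in Schwann cell genes (5.33, against 1.04 and 3.94, and 1.14 to 2.72). Pre-symptomatic replicate 1 was highest in B-cell genes (4.95) and held the precursor B-cell genes Vpreb1 and Igll1 at 119.2 and 75.03 FPKM, which reached at most 0.07 FPKM in the other 6. It shared the highest cell cycle scores (6.05 and 5.92) with end-stage replicate 4, and this pair had the highest correlation over genes between the stages (Pearson's r = 0.962, against 0.888 to 0.912 between pre-symptomatic and 0.900 to 0.941 between end-stage replicates). The high correlations of pre-symptomatic replicate 1 were not limited to that library. They were 0.958 with end-stage replicate 3, 0.955 with early symptomatic replicate 4, 0.955 with onset replicate 3 and 0.951 with described-as-WT replicate 3. End-stage replicate 4 also carried the most red blood cell RNA, with Hba-a1, a haemoglobin chain, at 115143 FPKM against 3286 to 23123 FPKM in the other 6.

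**Figure D1:**
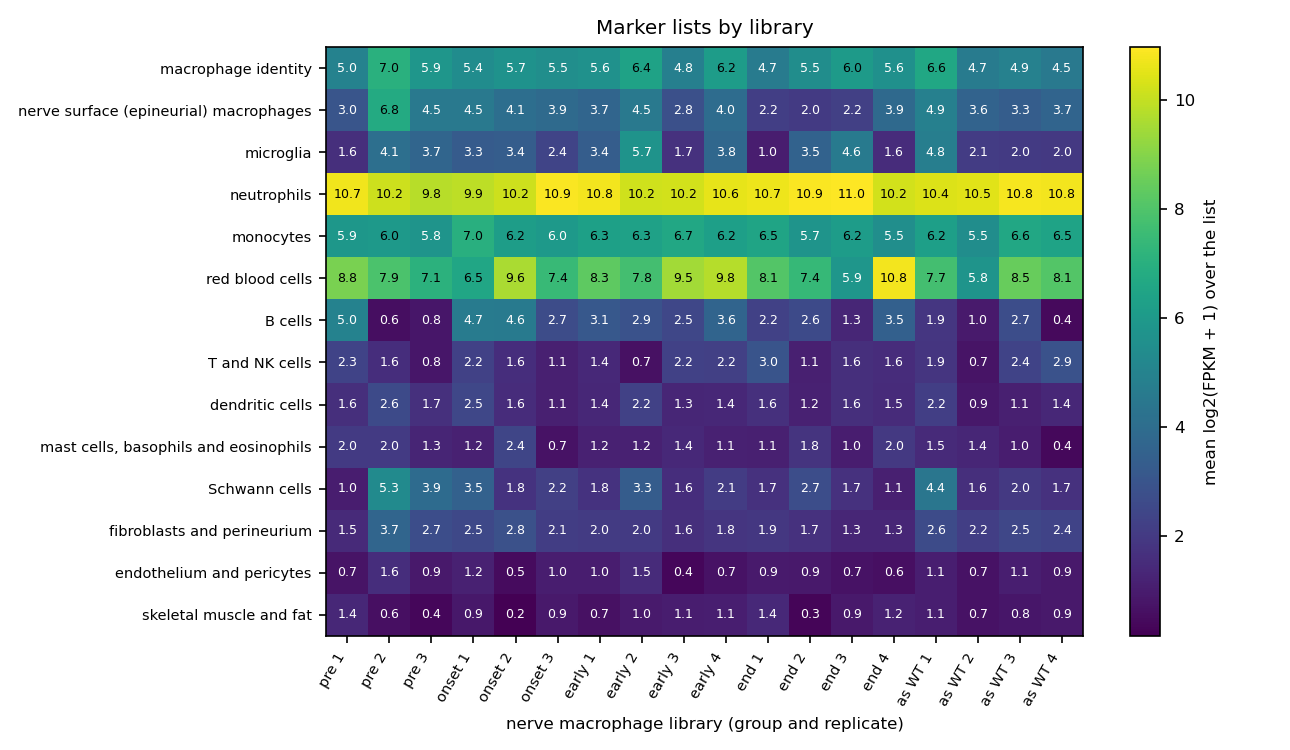
Mean log2(FPKM + 1) of 14 marker lists (rows) in the 18 non-grafted nerve macrophage libraries (columns, by group and replicate); colour and printed number give the same value. Neutrophil genes are the highest list in every column but that of end-stage replicate 4, where red blood cell genes are higher, and pre-symptomatic replicate 2 leads its group in macrophage identity, epineurial macrophage and Schwann cell genes.

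Il1r2 was the single gene that passed the test between the stages. In limma over the 18 non-grafted nerve libraries it rose and no gene fell, which is 1 of 10241 genes (0.00976%), the threshold being 0.05 on p-values adjusted by Benjamini and Hochberg. At an unadjusted p under 0.05 there were 668 genes (6.52%), 194 with higher and 474 with lower values at end stage. The median change over all genes was -0.12 and the median standard error of a change was 0.62. Median-ratio scaling moved the median change to 0.01 and scaling to a fixed total moved it to -0.27, so that list medians below are to be read against the median of all genes. In 1.30% of genes every end-stage library was above every pre-symptomatic one, and in 4.80% (492 genes) every one was below. Of the 492, 106 had an end-stage library at 0. Annotated features above 0 FPKM numbered 24548, 39569 and 22472 in pre-symptomatic replicates 1 to 3. In end-stage replicates 1 to 4 they numbered 18084, 18018, 20032 and 20251, so that the stages did not overlap. The part of this difference in detection in the lower values at end stage was not tested.

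Il1r2 encodes the type 2 interleukin-1 receptor, a decoy that binds interleukin-1 without signalling and is known from neutrophils, monocytes and macrophages. It lies on the plus strand at chr1:40084714-40125230 in mm10. Its level was 96.4, 109.9 and 108.4 FPKM in the pre-symptomatic libraries and 324, 278, 317 and 780.4 FPKM at end stage. Every end-stage library was above every pre-symptomatic one, and the lowest, at 278 FPKM, was also above the highest of the 14 other nerve libraries, at 179 FPKM. The means were 104.9 ± 7.41 FPKM (SD, n = 3) and 425 ± 238 FPKM (SD, n = 4), a ratio of 4.05, and end-stage replicate 4 gave most of the spread. On the log2 scale the rise was 1.87 ± 0.27 (SE; limma adjusted p = 0.0108).

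In order of level, onset (86.2 to 116.95 FPKM) and pre-symptomatic libraries overlapped, early symptomatic libraries (131.1 to 165) and those described as WT (123.2 to 179) overlapped above them, and end stage lay highest. Without end-stage replicate 4 the rise was 1.54, and over 25 alternative settings it ranged from 1.48 to 2.10. The adjusted p passed in 18 of the 25 and ranged from 0.00188 to 0.861. Among the settings in which it did not pass were a fit of the 7 libraries alone (limma adjusted p = 0.861), a fit with no mean-variance trend (0.337), a term for library numbers of 100 or more (0.533), a fit in which all 51 non-grafted libraries shared the spread (0.466) and the omission of pre-symptomatic replicate 2 (0.0711). An exact permutation test of the difference of log2 means over the 35 assignments of the 7 libraries gave p = 0.0286 when absolute differences were counted and p = 0.0571 when the smaller tail was multiplied by 2, each the smallest of its form. With the neutrophil score as a term the rise was 2.10 (limma adjusted p = 0.00507), and with the Schwann cell score as a term, chosen after the data were seen, it was 1.79 and did not pass (0.0955).

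**Figure D2:**
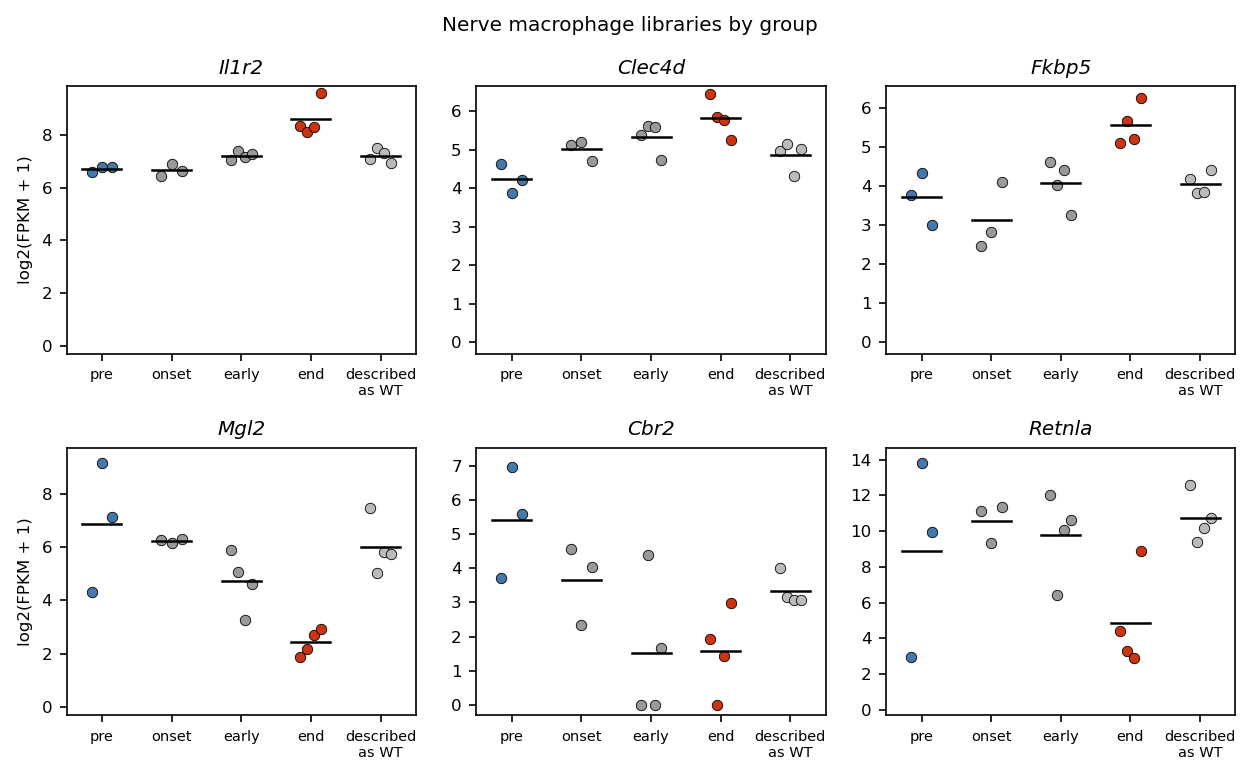
Level of 6 genes, as log2(FPKM + 1), in each of the 18 nerve macrophage libraries (points) by group, with the group mean as a line; the groups hold 3, 3, 4, 4 and 4 libraries. Il1r2 and Fkbp5 are higher in all 4 end-stage libraries than in any other and Mgl2 is lower in all 4, while Retnla spans from 6.73 to 14374 FPKM within the pre-symptomatic group.

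Other members of the interleukin-1 system were looked at after Il1r2 was seen to pass, and are given as values. Il1b, the main secreted ligand, was at 135.3, 115.1 and 58.5 FPKM before symptoms and 179, 239, 135.9 and 17.8 FPKM at end stage. Il1rn, the receptor antagonist, was at 54.1, 41.7 and 96.6 FPKM and then 75.3, 35.9, 68.5 and 18.5 FPKM. Both groups overlapped for both genes. Casp1, the protease that matures interleukin-1 beta, was at 54.5, 49.99 and 51.3 FPKM and then 41.3, 35.6, 42.1 and 20.9 FPKM, all end-stage values being lower, and its change of -0.61 ± 0.29 did not pass (limma adjusted p = 0.764). The signalling receptor Il1r1 was listed at 0 in 5 of the 7 libraries and reached 3.87 FPKM at most.

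Since only 1 gene passed, the 15 largest differences in each direction are given for genes whose stages did not overlap and whose higher mean was 5 FPKM or more. Apart from Il1r2 they did not pass. The changes on the higher side ran from 1.87 to 3.58. Alox15, a lipoxygenase that makes lipid mediators in macrophages and eosinophils, was at 11.7, 41.6 and 0 FPKM before symptoms and 70.7, 124.9, 49.2 and 199 FPKM at end stage (3.58 ± 1.15, limma adjusted p = 0.554), and early symptomatic libraries reached 232 FPKM. Olfm4, a granule protein of a neutrophil subset, was at 24.02, 3.24 and 37.5 FPKM and then 81.5, 121.8, 107.04 and 73.7 FPKM (2.57 ± 0.57, adjusted p = 0.274), and overlapped the onset range of 53.4 to 115.2 FPKM. Ifitm1, a membrane protein that restricts virus entry, was at 56.99, 16.1 and 122.04 FPKM and then 178, 320.2, 197 and 221 FPKM (2.18 ± 0.53, adjusted p = 0.363).

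The other genes on that side were mostly low before symptoms. Cxcl13, a chemokine that attracts B cells, was listed at 0 in all 3 pre-symptomatic libraries and at 0.01, 15.6, 0.31 and 75.5 FPKM at end stage. Apoc1, an apolipoprotein, was at 3.26, 0.09 and 0 FPKM and then 3.32, 47.8, 12.9 and 11.1 FPKM, and Ptgds, a prostaglandin D synthase, reached 33.7 FPKM in end-stage replicate 2 and at most 3.74 FPKM in the other 6. In both genes end-stage replicate 2 was thus the high library. Tmem45a2 (change 3.38 ± 0.75), Rabl3 (2.19 ± 0.79), the sulfotransferase gene Chst13 (2.15 ± 0.70), the kinase gene Smg1 of nonsense-mediated decay (2.06 ± 0.81), Selp, which encodes P-selectin (1.93 ± 1.00), and the dehydrogenase gene D2hgdh (1.92 ± 0.72) each had a pre-symptomatic library at or below 0.10 FPKM. The gene models BC117090 (2.30 ± 0.56) and 2010005H15Rik (1.87 ± 0.63) completed the 15.

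The next 3 genes, which had small p-values, were picked after their values were seen, and none passed. Clec4d, a C-type lectin receptor of myeloid cells, was at 23.7, 13.6 and 17.7 FPKM before symptoms and 86.5, 56.6, 53.6 and 37.4 FPKM at end stage (1.60 ± 0.32, limma adjusted p = 0.22). Srgn, which encodes the granule proteoglycan serglycin, was at 153, 143.6 and 75.8 FPKM and then 243, 230.2, 259 and 277 FPKM (1.08 ± 0.22, adjusted p = 0.22), and passed under median-ratio scaling (adjusted p = 0.0171). Fkbp5, a cochaperone of the glucocorticoid receptor, was at 12.6, 19.2 and 6.93 FPKM and then 32.95, 49.4, 35.5 and 75.03 FPKM (1.85 ± 0.46, adjusted p = 0.363). All 4 end-stage values of Fkbp5 were above the highest of the other 14 nerve libraries, 23.3 FPKM.

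Among 18 neutrophil markers none passed, 4 were higher and 0 lower at an unadjusted p under 0.05, against 1.89% and 4.63% of all genes, and the median change was 0.41. Without pre-symptomatic replicate 2, the library with the least neutrophil RNA by summed FPKM, the median was 0.05. Cxcr2, the chemokine receptor of mature neutrophils, was at 165, 60.5 and 93.1 FPKM before symptoms and 382, 249, 247 and 142.3 FPKM at end stage (1.29 ± 0.40, limma adjusted p = 0.524). Mpo, a primary granule gene of immature neutrophils, was at 1049, 1644 and 7.45 FPKM and then 204, 779.5, 853 and 761 FPKM, with pre-symptomatic replicate 3 as the low library. Monocyte markers had a median change of 0.17 over 12 genes, and of -0.10 without pre-symptomatic replicate 2.

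The largest differences on the lower side included nerve surface macrophage genes and genes of Schwann cells and fibroblasts. Mgl2, a lectin of alternatively activated macrophages, was at 18.7, 571 and 140.7 FPKM before symptoms and 2.70, 3.48, 5.52 and 6.69 FPKM at end stage. The stages did not overlap, and end-stage values were also below those at onset (69.5 to 79.2), at the early symptomatic stage (8.67 to 59.1) and in the libraries described as WT (32.03 to 177). The change of -4.44 ± 0.79 did not pass (limma adjusted p = 0.0867). It passed in 4 of 25 alternative settings: without pre-symptomatic replicate 1 (-5.73, adjusted p = 0.000576), without that library and end-stage replicate 4 (-5.90, 0.0012), with the macrophage identity score as a term (-3.79, 0.005) and when all 51 non-grafted libraries shared the spread (-4.44, 0.000471). All but the first were chosen after the data were seen, and the first leaves out the pre-symptomatic library with the lowest Mgl2 level.

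Cbr2, a carbonyl reductase of resident macrophages, was at 12.1, 125.1 and 46.8 FPKM and then 2.84, 0, 1.70 and 6.84 FPKM (-3.84 ± 0.96, limma adjusted p = 0.399). Retnla, a secreted product of macrophages that respond to interleukin-4, was at 6.73, 14374 and 981 FPKM before symptoms and 20.3, 8.78, 6.35 and 471 FPKM at end stage, so that the stages overlapped through pre-symptomatic replicate 1 (-4.03 ± 1.80, adjusted p = 0.747). In the onset, early symptomatic and described-as-WT libraries Retnla was at 85.2 FPKM or more. Of the 10 nerve surface macrophage genes tested none passed, 5 were lower at an unadjusted p under 0.05 against 4.63% of all genes, and the median change was -2.33 against -0.12 for all genes. Folr2, a folate receptor (-3.22 ± 1.00), and Cd163, the haemoglobin scavenger receptor (-3.15 ± 1.02), were among the 5. The median was -0.90 without pre-symptomatic replicate 2 and -3.05 without replicate 1.

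Alternative activation and resident genes, a list that shares members with the last, had a median change of -1.73 over 16 genes, 8 lower and 1 higher at an unadjusted p under 0.05, against 4.63% and 1.89% of all genes, and none called. The median was -0.80 without pre-symptomatic replicate 2 and -2.52 without replicate 1. The higher one was Chil3, the chitinase-like protein Ym1 that neutrophils also make, at 6993, 2541 and 4663 FPKM before symptoms and 7455, 6654, 12014 and 9338 FPKM at end stage (0.99 ± 0.29, limma adjusted p = 0.511). Mrc1, the mannose receptor, was at 7.55, 68.8 and 25.5 FPKM and then 2.07, 2.21, 0.23 and 7.97 FPKM. Schwann cell genes had a median of -1.89 over 10 genes, 5 of them lower at an unadjusted p under 0.05 against 4.63% of all genes. Their median was -0.93 without pre-symptomatic replicate 2 and -3.13 without replicate 1. Fibroblast and perineurium genes had a median of -1.72 over 8 genes, 3 of them lower at an unadjusted p under 0.05, and of -0.81 and -2.57 without the same libraries. With the Schwann cell score as a term, chosen after the data were seen, 0 nerve surface macrophage genes were called, as in the main fit. Since none was called in either, these fits do not show the part of Schwann cells in the macrophage gene differences. The part of fibroblasts was not tested.

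The other large differences on the lower side, none of which passed, mostly shared this library pattern. Serpinh1, a collagen chaperone, was at 0.80, 43.9 and 30.9 FPKM before symptoms and 0, 0.02, 0 and 0.25 FPKM at end stage (-3.69 ± 0.91, limma adjusted p = 0.363). Col1a2, a collagen chain (-2.94 ± 0.77), Vtn, vitronectin (-2.98 ± 0.73), Gpc3, a glypican (-2.85 ± 0.95), Fa2h, a hydroxylase of myelin lipids (-2.63 ± 0.79), and Gpm6a, a membrane glycoprotein (-2.55 ± 0.87), were likewise lowest before symptoms in replicate 1. Ifi205, an interferon-inducible gene (-2.96 ± 1.01), Cd40, a costimulatory receptor (-2.85 ± 1.16), Rem1 (-2.76 ± 0.92), Kctd21 (-2.59 ± 0.73), Metap1d (-2.57 ± 1.00) and Mvk, mevalonate kinase (-2.54 ± 1.01), lay between 1.01 and 25.9 FPKM before symptoms and at 6.72 FPKM or less at end stage. Dntt, the terminal transferase of lymphoid precursors, was highest in pre-symptomatic replicate 1 at 29.9 FPKM (-2.53 ± 0.72). In 10 of the 15 genes pre-symptomatic replicate 2 was the highest of the 7 libraries, against 235 of all 492 genes that were lower without overlap.

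Pre-symptomatic replicate 1 held precursor B-cell genes. It had the highest correlation with an end-stage library (Pearson's r = 0.962), and high ones with onset, early symptomatic and described-as-WT libraries too. Leaving it out raised the number of genes called to 61 of 10242 tested, of which 22 rose and 39 fell. Beside Il1r2 and Mgl2 these included Clec4d (1.79), Srgn (1.26) and Chil3 (1.33) among the rises and Pmp22, a myelin protein (-5.70), Serpinh1 (-5.15) and Dcn, the matrix protein decorin (-5.03), among the falls. Without that library and end-stage replicate 4 together, a setting chosen after the data were seen, 37 of 10221 genes were called. Of these, 15 were higher and 22 lower, and 28 were among the 61. Mgl2, Cbr2 and Retnla passed in both settings. Both leave out pre-symptomatic replicate 1, the lowest of its group for each of these genes, and the settings are thus not independent. Without pre-symptomatic replicate 2 limma called no gene, and 417 genes were at an unadjusted p under 0.05.

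Most genes of the type I interferon response had lower mean values at end stage, and none passed. Interferons act through transcription factors such as Stat2 to switch on antiviral genes, many of which carry an interferon-stimulated response element near the start site. Of the 24 members tested 0 were called and 23 had a negative change. At an unadjusted p under 0.05, 11 were lower and 0 higher, against 4.63% and 1.89% of all genes, and 8 lay lower without overlap, against 4.80% of all genes. The median change was -0.94, and leaving out any 1 library gave medians from -1.28 to -0.70. The promoters of 4 members are shown because 18 members of this list had a change below that in microglia, these 4 among them. Only members whose window held a match to the element were eligible, so a match in all 4 was fixed by the choice. Among the eligible called members, the 4 with the most negative difference from microglia were taken. Each runs 5′ to 3′ from 250 bases before to 50 bases after the start site, from RefSeq on GRCm38.p6, and capitals mark matches to GAAA, any 2 bases and GAAA, the core of the response element, or to its reverse complement, adjoining matches being joined. They are Oas1a (chr5:120907476-120907775, minus strand), Cxcl10 (chr5:92348840-92349139, minus strand), Isg15 (chr4:156200769-156201068, minus strand) and Ifit3 (chr19:34583279-34583578, plus strand).
Oas1a: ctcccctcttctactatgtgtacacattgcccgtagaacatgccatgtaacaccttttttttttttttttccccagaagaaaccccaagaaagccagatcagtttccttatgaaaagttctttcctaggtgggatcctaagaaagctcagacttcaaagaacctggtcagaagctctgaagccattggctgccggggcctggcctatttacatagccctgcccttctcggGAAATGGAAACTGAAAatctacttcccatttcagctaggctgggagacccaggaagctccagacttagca
Cxcl10: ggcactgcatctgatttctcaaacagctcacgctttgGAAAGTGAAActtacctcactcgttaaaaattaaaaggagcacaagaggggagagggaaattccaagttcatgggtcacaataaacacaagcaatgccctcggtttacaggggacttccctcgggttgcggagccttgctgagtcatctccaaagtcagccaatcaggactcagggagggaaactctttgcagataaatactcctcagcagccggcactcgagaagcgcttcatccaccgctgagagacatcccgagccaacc
Isg15: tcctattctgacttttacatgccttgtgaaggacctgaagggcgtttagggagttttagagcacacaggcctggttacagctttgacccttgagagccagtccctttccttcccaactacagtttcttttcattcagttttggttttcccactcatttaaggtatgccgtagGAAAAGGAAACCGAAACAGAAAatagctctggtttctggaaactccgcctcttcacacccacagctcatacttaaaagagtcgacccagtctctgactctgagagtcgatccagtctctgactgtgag
Ifit3: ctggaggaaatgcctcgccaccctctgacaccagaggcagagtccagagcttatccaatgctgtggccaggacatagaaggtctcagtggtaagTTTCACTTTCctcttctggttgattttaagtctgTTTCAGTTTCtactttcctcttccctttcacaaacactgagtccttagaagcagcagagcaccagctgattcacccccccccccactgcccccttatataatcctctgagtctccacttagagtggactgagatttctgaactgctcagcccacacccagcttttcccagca

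Counting both strands, 12 of the 19 list genes with a RefSeq window held the element (63.2%), against 1079 of 27025 genes (3.99%), and a match only describes the letters in the window. Oas1a, which makes the signal that activates the antiviral RNase L, was at 67.8, 83.3 and 82.8 FPKM before symptoms and 39.4, 16.4, 23.3 and 2.37 FPKM at end stage (-2.34 ± 0.53, limma adjusted p = 0.274). All 4 end-stage values were below the pre-symptomatic ones and below the libraries described as WT (55.4 to 85.4), and they overlapped onset (30.5 to 56.1). Ifit3, an antiviral protein induced by interferon, was at 23.03, 71.9 and 39.5 FPKM and then 14.97, 11.4, 11.8 and 1.03 FPKM (-2.29 ± 0.72). Isg15, a ubiquitin-like modifier, was at 29.4, 47.1 and 34.4 FPKM and then 18.2, 3.48, 6.41 and 15.6 FPKM (-1.88 ± 0.68), and the chemokine Cxcl10 was at 3.57, 2.52 and 5.36 FPKM and then 0, 0, 2.13 and 1.66 FPKM (-1.46 ± 0.73). None of the 4 overlapped between the stages. The choice of these 4 favoured this, since the difference from microglia contains the change in the nerve. Of all 24 members tested, 8 lay lower without overlap.

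Usp18, the protease that removes Isg15 from proteins, was at 16.4, 12.2 and 23.7 FPKM and then 8.50, 0, 8.95 and 1.27 FPKM. Stat2, a transcription factor of the interferon signal, was at 15.7 FPKM or more before symptoms and at 7.74, 10.4, 10.9 and 2.72 FPKM at end stage. End-stage replicate 4, the library rich in red cell RNA, was the lowest of the 7 for Oas1a, Ifit3, Stat2, Rtp4 (2.82 FPKM) and Ifi27l2a (10.6 FPKM), while end-stage replicate 2 was lowest for Usp18 and Isg15. The most highly expressed members were Ifitm3, at 708, 567 and 710.5 FPKM and then 987, 452, 631 and 273 FPKM (-0.32 ± 0.32), and Ifi27l2a (-2.17 ± 0.62), and neither passed. The RNA sensor Ifih1 was the single member with a positive change (0.51 ± 0.76).

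**Figure D3:**
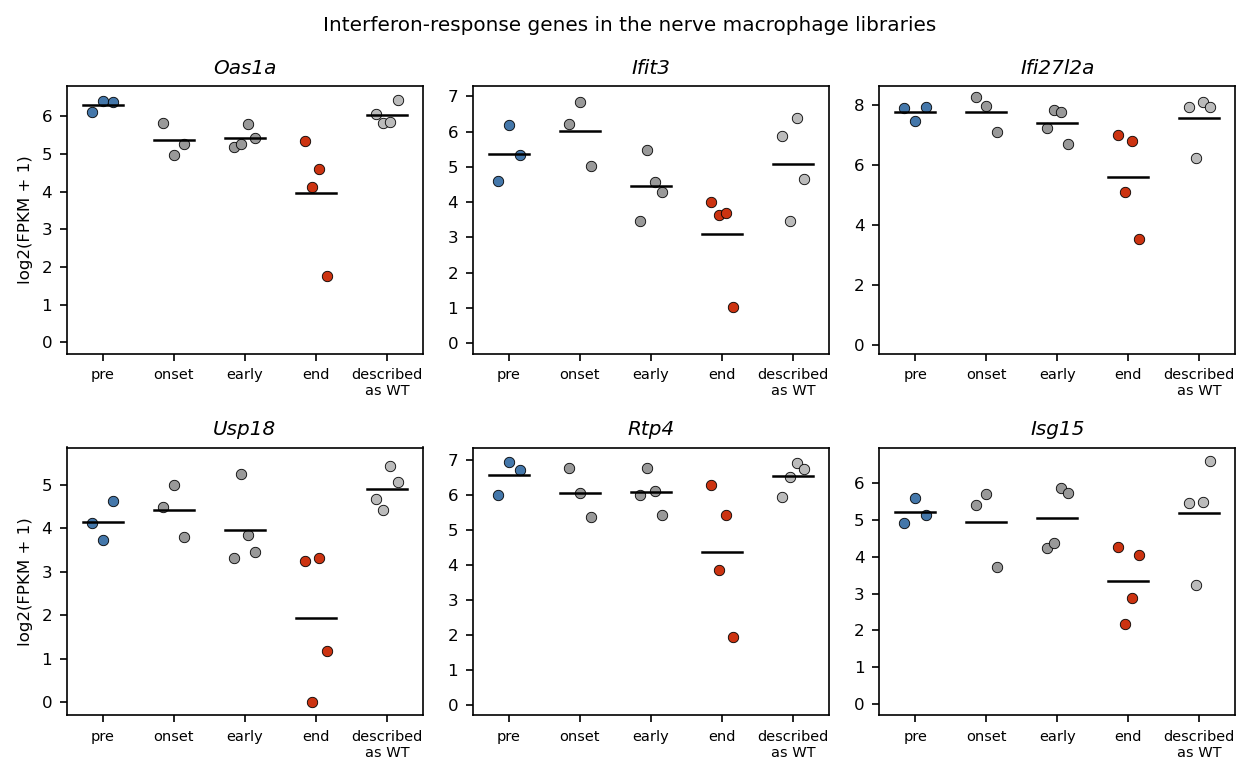
Level of 6 interferon-response genes, as log2(FPKM + 1), in the 18 nerve macrophage libraries (points) by group with the group mean as a line. End-stage points of Oas1a, Ifit3, Ifi27l2a, Usp18 and Isg15 lie below all pre-symptomatic points, and Rtp4 overlaps through 1 end-stage library at 76.7 FPKM.

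Antigen presentation genes did not pass either. The MHC class II list had a median change of -0.91 over 14 genes, 4 of them lower at an unadjusted p under 0.05 against 4.63% of all genes. The median was -0.23 without pre-symptomatic replicate 2 and -1.75 without replicate 1. Cd74, the invariant chain, was at 904, 12219 and 6017 FPKM before symptoms and 1969, 1370.2, 1588 and 1983 FPKM at end stage, so that replicate 1 lay below and replicates 2 and 3 above all end-stage values (-1.25 ± 0.64, limma adjusted p = 0.792). H2-Ab1, a class II chain, had the same order (353, 4155 and 2654 FPKM, then 684, 483, 628 and 533 FPKM) and passed without replicate 1 (-2.52, adjusted p = 0.035), as did 2 other members. Over all genes, 61 of 10242 passed in that setting. Without replicate 1 and end-stage replicate 4 together 0 members passed in limma. Of MHC class I, H2-D1 had a change of -0.23 ± 0.19 and B2m, the shared light chain, of 0.03 ± 0.26, with a list median of -0.23.

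Phagocyte, lysosome and complement genes held no call. Disease-associated phagocyte genes, a programme described in microglia, had a median of 0.29 over 24 genes, lysosome genes 0.10 over 28 and complement genes -0.25 over 19. Ctsd, the lysosomal protease cathepsin D, was at 418, 606 and 445 FPKM before symptoms and 547, 2604, 2300.3 and 496 FPKM at end stage (1.22 ± 0.45, limma adjusted p = 0.656). Gpnmb, a glycoprotein of lipid-laden macrophages, was at 0.71, 7.96 and 0 FPKM and then 0, 349, 36.6 and 13.5 FPKM, and Trem2, a lipid-sensing receptor, at 12.8, 33.4 and 24.6 FPKM and then 0, 91.5, 131.9 and 13.2 FPKM. End-stage replicates 2 and 3 were the high ones in all 3 genes. They were also the highest at end stage in microglia marker genes (3.55 and 4.59, against 1.04 and 1.56), and replicate 2 held the myelin gene Mbp at 2410.0 FPKM, against 18.9 to 70.8 FPKM in the other 3. Before symptoms the microglia marker score was 1.62, 4.13 and 3.69 in replicates 1 to 3. The part of these markers in the differences was not tested.

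The most highly expressed members of these lists did not pass. Apoe, the main lipid carrier of macrophages, was at 275, 3096 and 2035 FPKM and then 379.7, 2549.8, 2711 and 932 FPKM (0.06 ± 0.72). Tyrobp, the signalling adaptor of Trem2, had a change of 0.27 ± 0.21, the protease Ctss of 0.28 ± 0.40, the integrin chain Itgb2 of 0.00 ± 0.23 and the complement chain C1qb of -0.41 ± 0.95. Of Fc receptors, the shared chain Fcer1g had a change of 0.08 ± 0.20 and Fcgr3 of -0.25 ± 0.23. Apoptotic cell uptake genes had a median of -0.63 over 15 genes, with the scavenger receptor Cd36 at -1.45 ± 0.95 and Itgb5 at -0.31 ± 0.80.

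Inflammatory signalling lists held no call. Inflammatory cytokines had a median change of 0.07 over 9 genes, chemokine ligands 0.18 over 16, NF-kB feedback genes 0.15 over 20 and Toll-like receptor genes -0.12 over 18. The chemokine Pf4 was at 4.65, 471 and 272 FPKM before symptoms and 11.9, 0, 14.9 and 61.7 FPKM at end stage, high in the same pre-symptomatic replicates as the nerve surface genes. Ccl6 had a change of 0.33 ± 0.26, Nfkbia, the inhibitor of NF-kB, of 0.41 ± 0.21 and Tnfaip2 of 0.11 ± 0.30. Unc93b1, which carries Toll-like receptors to endosomes, had a change of -0.68 ± 0.28 and the adaptor Myd88 of -0.10 ± 0.26. The NADPH oxidase genes Rac2 and Cybb had a change of 0.11 ± 0.22 and -0.36 ± 0.23, and the immediate early genes Klf6 and Btg2 of -0.09 ± 0.24 and -0.39 ± 0.25.

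Metabolic lists held no call, with medians from -0.35 to 0.39. Oxidative phosphorylation genes had a median of 0.15 over 25 (Atp5b 0.19 ± 0.24, Cox4i1 0.23 ± 0.20), and glycolysis and hypoxia genes 0.05 over 23 (Pkm 0.06 ± 0.20, Eno1 -0.03 ± 0.17). Cytosolic ribosomal protein genes had 0.39 over 25 (Rpl32 0.35 ± 0.35, Rps3 0.55 ± 0.28), and end-stage replicate 4 was the highest library for both named genes. Cholesterol synthesis had -0.35 over 17 (Msmo1 0.00 ± 0.32, Sc5d -1.10 ± 0.44). Lipid efflux and storage had 0.06 over 17 (Plin2, a lipid droplet protein, 0.09 ± 0.27). Iron and heme handling had -0.14 over 15 (the ferritin chain Ftl1 -0.14 ± 0.18, haptoglobin Hp 0.54 ± 0.21), and antioxidant genes had -0.06 over 19 (Gpx1 0.31 ± 0.29, Prdx5 -0.06 ± 0.23).

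Protein quality control genes held no call. Heat shock proteins had a median of -0.23 over 16 (Hspa8 0.09 ± 0.32, Hspa5 -0.05 ± 0.33), the unfolded protein response -0.03 over 19 (its transcription factor Xbp1 -0.03 ± 0.21), the proteasome -0.18 over 18 (Ubb -0.25 ± 0.22, Psma7 -0.19 ± 0.18) and autophagy 0.20 over 18 (Gabarap 0.45 ± 0.20, Sqstm1 0.29 ± 0.25). Cell cycle genes had -0.11 over 23 (Stmn1 -0.32 ± 0.28), and Rrm2, a subunit of ribonucleotide reductase (-0.19 ± 0.53), was highest in end-stage replicate 4 at 369 FPKM and next in pre-symptomatic replicate 1 at 221 FPKM. Actin and migration genes had 0.19 over 22 (Tmsb4x -0.18 ± 0.26, Pfn1 -0.01 ± 0.21), adhesion genes 0.01 over 19 and purinergic genes -0.45 over 16 (Entpd1 0.11 ± 0.32, the ATP receptor P2rx4 -0.82 ± 0.53).

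Many growth factor and guidance genes were too low to be tested. Growth and trophic factors had a median of 0.20 over 10 tested of 26 listed (progranulin, Grn, 0.19 ± 0.26; oncostatin M, Osm, 0.87 ± 0.63), and axon guidance genes had -0.33 over 7 of 23 (Sema4a -0.46 ± 0.23, Sema4d -0.27 ± 0.51). Matrix proteases had 0.04 over 11 (Mmp8 0.28 ± 0.29, Mmp9 0.04 ± 0.25), colony-stimulating factor genes -0.01 over 6 (Csf3r -0.26 ± 0.37, Csf2ra -0.39 ± 0.24) and myeloid transcription factors -0.19 over 20 (Spi1 -0.01 ± 0.18, Cebpb -0.19 ± 0.29). Mouse orthologs of ALS genes had -0.10 over 19 (Tuba4a 0.38 ± 0.30). The mouse Sod1 was at 24.4, 32.6 and 14.5 FPKM and then 19.6, 13.1, 16.9 and 44.9 FPKM (-0.10 ± 0.42), and no source used here states how fragments of the human transgene were assigned. Cd68, a lysosomal membrane protein of macrophages, had a change of -0.37 ± 0.32, Itgam of -0.37 ± 0.27, Csf1r of -0.97 ± 0.50 and Adgre1 of -0.48 ± 0.53.

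**Figure D4:**
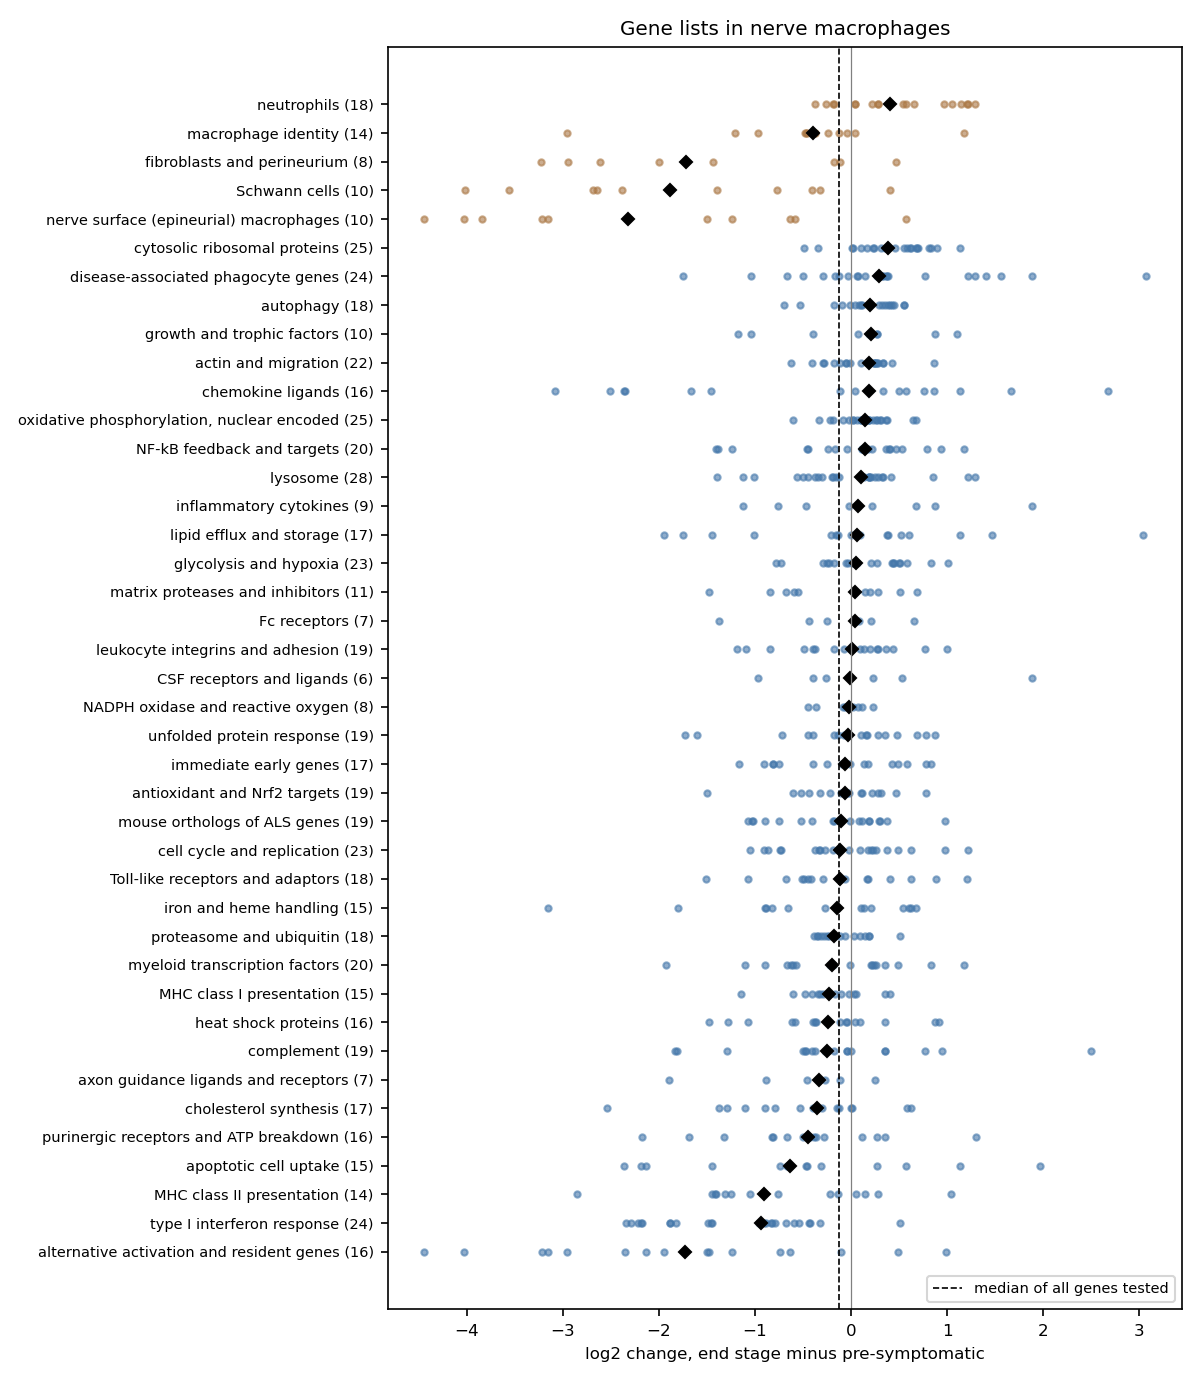
Log2 change, end stage minus pre-symptomatic, of each tested member (points) of 36 pathway lists (blue) and 5 marker lists (brown, at the top), with the number tested in brackets, the list median (diamonds) and the median of all genes tested (dashed line, -0.12). The medians of nerve surface macrophage (-2.33), Schwann cell (-1.89), alternative activation (-1.73), fibroblast (-1.72), type I interferon (-0.94) and MHC class II genes (-0.91) lie farthest to the left.

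The same 2 stages were set against each other in spinal cord microglia, in a fit over the 51 non-grafted libraries. The change in nerve macrophages differed from that in microglia for 2328 of 11753 genes (19.8%), 1119 higher (9.52%) and 1209 lower (10.3%) in the nerve. Scaling moved this split: median ratios gave 1639 higher against 840 lower and a fixed total gave 1606 against 1085, while the median difference over all genes went from -0.18 to 0.20 with median ratios. Of disease-associated phagocyte genes 18 of 24 had a lower change in the nerve (medians 0.29 and 3.66 in nerve and microglia). The same direction was called for 21 of 28 lysosome genes (medians 0.10 and 2.46), 18 of 24 interferon genes (medians -0.94 and 1.66), 14 of 23 cell cycle genes (medians -0.11 and 2.00) and 10 of 15 MHC class I genes (medians -0.23 and 1.83). The genes of the promoters shown above were chosen by this difference. Oas1a differed by -5.21 ± 0.87, Cxcl10 by -4.05 ± 0.83, Isg15 by -3.74 ± 0.79 and Ifit3 by -3.42 ± 0.76, with limma adjusted p of 0.0037 or less.

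The 8 largest differences with the nerve below microglia were in Spp1, osteopontin (-7.91 ± 1.52), Ms4a7 (-7.31 ± 1.15), Lpl, lipoprotein lipase (-6.79 ± 1.19), Lgals3, galectin 3 (-6.33 ± 1.06), Lilrb4a, an inhibitory receptor (-6.11 ± 0.94), Cst7, cystatin F (-6.08 ± 1.49), Cd72 (-6.02 ± 1.18) and Cybb, an NADPH oxidase chain (-5.86 ± 1.13), each with a limma adjusted p of 0.00673 or less. Lgals3 averaged 941 FPKM before symptoms and 954 FPKM at end stage in the nerve, against 9.28 and 781 FPKM in microglia. It was thus already high in the nerve preparation before symptoms, as was Cybb, with 492 against 2.00 FPKM. Spp1 averaged 129.7 and 206 FPKM in the nerve, against 29.9 and 6499 FPKM in microglia.

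The largest differences the other way included Sparcl1, a matrix protein of astrocytes (5.91 ± 1.42), Atp1b2, a sodium pump chain (5.49 ± 1.37), Acsl6 (5.36 ± 1.19), Apln, the peptide apelin (5.34 ± 1.14), Bcan, the brain matrix protein brevican (5.31 ± 1.28), Ntsr2, a neurotensin receptor (5.30 ± 1.31) and Itih3 (5.29 ± 1.32), with limma adjusted p of 0.0073 or less. Their nerve means were 1.22 FPKM or less before symptoms and 15.2 FPKM or less at end stage, while their microglia means were 69.4 to 1997 FPKM and then 3.29 to 160.3 FPKM. Of the 7 nerve libraries end-stage replicate 2 was the highest for each of these genes, with Sparcl1 at 53.6 FPKM, against 3.21 FPKM or less before symptoms. Higher changes in the nerve were also called for 11 of 25 oxidative phosphorylation genes (medians 0.15 and -0.78) and 6 of 17 cholesterol synthesis genes (medians -0.35 and -1.37).

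For Il1r2 the difference did not pass (-0.77 ± 1.53, limma adjusted p = 0.755). Its level in microglia was 0.80, 0.08, 0.15 and 1.03 FPKM before symptoms and 0.84, 3.00, 1.42 and 384 FPKM at end stage, so that 1 library held nearly all of it. That library, end-stage microglia replicate 4, also held S100a8 at 20413 FPKM, against 207 to 807 FPKM in the other 3, and the part of neutrophil RNA in this value was not tested. With the macrophage identity score as a term, a setting chosen after the data were seen, 53 genes differed between the tissues, and with a term for library numbers of 100 or more 462 differed. Tissue, cell makeup and pooling cannot be told apart from cell type in this comparison.

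**Figure D5:**
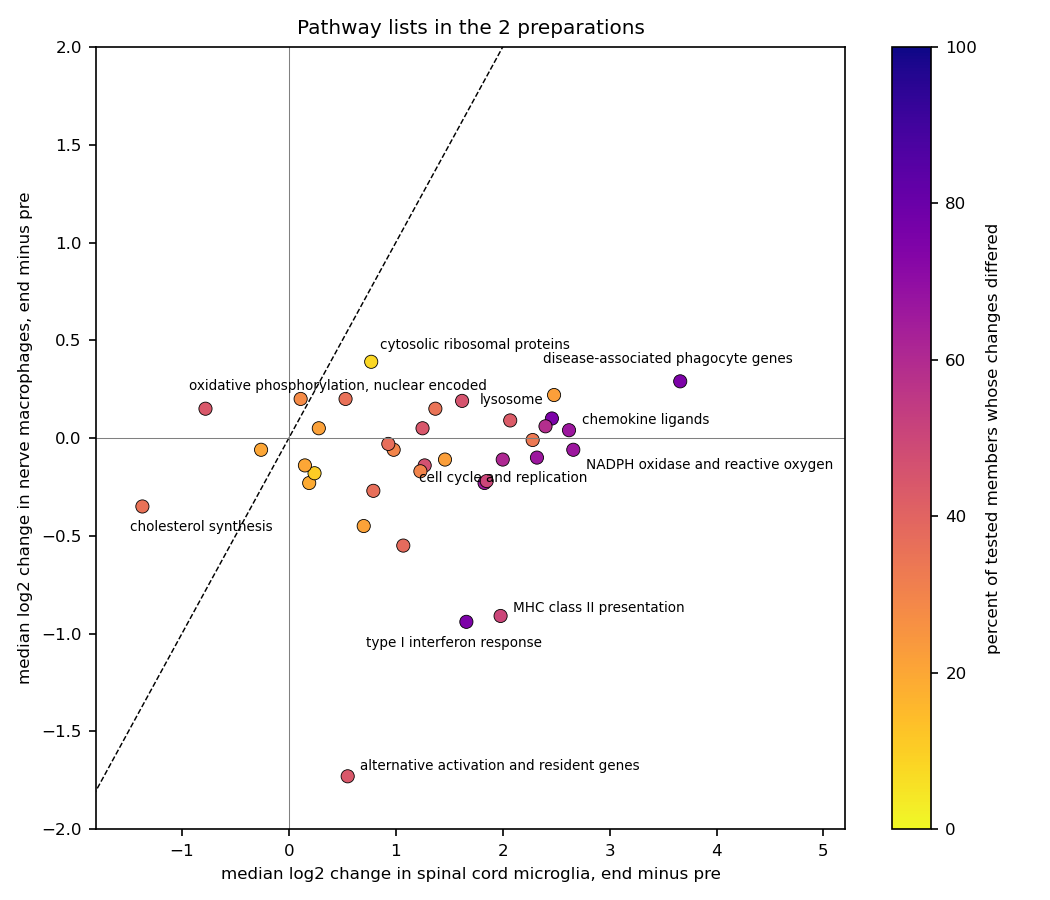
Median log2 change from the pre-symptomatic to end stage in spinal cord microglia (horizontal) and nerve macrophages (vertical) for 36 pathway lists (points), coloured by the percent of tested members whose changes differed; the dashed line marks equal changes and the axes differ in scale. Nerve medians lie between -1.73 and 0.39, while microglia medians reach 3.66 for disease-associated phagocyte genes.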

How the data were processed

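RNA-seq was made from CD11b-selected cells of sciatic nerve and spinal cord. The authors deposited FPKM per annotated feature; the submitters' processing notes name mm10, FastQC, Picard, SAMtools, DESeq2 and R 3.2.5 without their roles, and no source used here states the aligner, the counter or the strand setting. FPKM keep no read totals, so depth is unknown and no counting intervals are given. Of 58976 features, the 23297 with a symbol were used. Genes with a mean of at least 1 FPKM were tested on log2(FPKM + 1) with limma 3.58.1 in R 4.3.3 (group means, mean-variance trend), over 18 nerve libraries or over 51 libraries for the comparison with microglia, with Benjamini-Hochberg adjustment over all genes tested. The fits were tested on simulated data. Alternatives changed the pseudocount, the filter, the scaling, the libraries sharing the spread, the trend, library weights, the replicate block and terms for library number or other cells, and left out libraries. Named genes were the 15 largest changes each way without overlap and with at least 5 FPKM, the 2 most highly expressed members of each of 36 pathway lists, 7 genes always given, and 8 differences each way from microglia. Other genes are examples from the lists or were picked after their values were seen. Some genes that this rule names are not reported here. Members and lists were chosen with earlier results of these data known. Each library holds 1 mouse or a pool of 2 mice. The labels do not say whether nerve and spinal cord libraries came from the same mice.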

Additional observations from a re-analysis of the deposited data

Results flagged for a closer look

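Of 66 genes whose levels are given, 13 had 1 end-stage library far from the other 3. Chance gives about 1 in 20 for unselected values, which is no rate for these genes, since some were named because single libraries stood out and others lie near 0. End-stage replicate 4 was the high library for Il1r2 (780.4 FPKM), Retnla (471 FPKM), Rrm2 (369 FPKM), Cd40 (6.72 FPKM), Il1r1 (1.70 FPKM) and Serpinh1 (0.25 FPKM). End-stage replicate 2 was the high library for Mbp (2410.0 FPKM), Gpnmb (349 FPKM), Sparcl1 (53.6 FPKM) and Ptgds (33.7 FPKM). End-stage replicate 1 was the low library for Mpo (204 FPKM). For Kctd21 and Dntt single libraries stood at 0.01 FPKM, replicates 1 and 3, beside libraries listed at 0.

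The change between the stages differed between nerve macrophages and microglia for 2328 genes in the limma fit. Among the genes described, the nerve minus microglia difference on the log2 scale was below 0 for Spp1 (-7.91), Ms4a7 (-7.31), Lpl (-6.79), Lgals3 (-6.33), Lilrb4a (-6.11), Cst7 (-6.08), Cd72 (-6.02), Cybb (-5.86), Oas1a (-5.21), Cxcl10 (-4.05), Isg15 (-3.74) and Ifit3 (-3.42). It was above 0 for Sparcl1 (5.91), Atp1b2 (5.49), Acsl6 (5.36), Apln (5.34), Bcan (5.31), Ntsr2 (5.30) and Itih3 (5.29).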

How the results depend on the processing

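The number of genes called between the stages of nerve macrophages, 1 in the fit as reported, was small under most settings. It was 5 with no filter on low values, 2 with median-ratio scaling, 2 with a neutrophil term and 2 with a macrophage identity term. It was 0 in 6 settings, where the genes at an unadjusted p under 0.05 in limma numbered 555 (only the groups compared), 609 (no mean-variance trend), 706 (replicate block), 668 (term for library numbers of 100 or more), 449 (term for Schwann cell genes) and 417 (without pre-symptomatic replicate 2). Leaving out 1 library gave 0 to 61 calls. Leaving out the pair with the highest cell cycle scores gave 37, and the fit over all 51 non-grafted libraries gave 203 (44 higher and 159 lower), without Il1r2. The terms for Schwann and macrophage genes, the omitted pair and the fit over 51 libraries were chosen after seeing the data. In that fit all groups share 1 estimate of the spread.

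Genes whose change differed from that in microglia numbered 2328, and 1530 with a pseudocount of 0.1, 1308 with a neutrophil term, 462 with a library number term and 53 with a macrophage identity term. The number was 2740 with a pseudocount of 5, 3012 with library quality weights and 3310 with a Schwann cell term. Leaving out 1 library gave 1396 to 2527. With the macrophage term Ctsd (0.09), C1qb (0.65) and Adgre1 (0.08) turned positive. C1qb and Adgre1 are members of the list that forms this term, so that the fit removes part of their change by design. For Ctsd, which is not a member, the cause was not tested. The replicate numbers do not pair the samples: deviations of libraries with the same number correlated at 0.01, 0.046 and 0.055, and the replicate block left 0 calls between the stages (Il1r2 adjusted p = 0.0544 in limma) and 2283 differences from microglia. Of the values of named genes under all settings, 6820 kept their side of the threshold, 386 lost the call, 3 reversed and the rest gained a call. The 6820 are no count of kept directions. Values near 0 that did not pass could change sign, since scaling alone moved the median change of all genes from -0.12 to 0.01 or -0.27.

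The small number of libraries, 3 and 4, limits every comparison, and FPKM do not show how many fragments lie behind a value. Values near 0 are the least certain.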

Other observations

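Genes known to respond to glucocorticoids were looked up after Fkbp5 and Il1r2 had been seen, so the list is a description. Of 12 tested members, which include Il1r2 and Fkbp5, 11 had a positive and 1, Cd163, a negative change, with a median of 0.73 against -0.12 for all genes. Tsc22d3, which encodes the glucocorticoid-induced leucine zipper, was at 73.7, 112.7 and 88.2 FPKM before symptoms and 159, 181, 105.8 and 124.3 FPKM at end stage (0.62 ± 0.30, limma adjusted p = 0.777), with the stages overlapping. Mt2, a metallothionein, was at 0.49, 4.71 and 4.14 FPKM and then 1.55, 117.5, 4.63 and 22.8 FPKM, high in end-stage replicate 2. Apart from Il1r2 none of these genes passed.

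Other genes with small p-values, named after their values were seen, did not pass and did not overlap between the stages. Ifitm2, a membrane protein that restricts virus entry like its neighbour Ifitm1, was at 485, 559 and 605 FPKM before symptoms and 929.9, 884, 798 and 1116 FPKM at end stage (0.76 ± 0.17, limma adjusted p = 0.274). It was thus higher at end stage while most interferon-response genes had negative changes. Il10ra, the interleukin-10 receptor chain, was at 27.9, 45.8 and 30.2 FPKM and then 19.2, 8.50, 8.58 and 5.39 FPKM (-1.74 ± 0.40, adjusted p = 0.274). Snx2, a sorting nexin, was at 71.99, 195 and 109.9 FPKM and then 52.6, 32.8, 55.1 and 46.6 FPKM (-1.32 ± 0.29). Mbnl1, a splicing regulator, was at 79.02, 131.1 and 138.3 FPKM and then 58.3, 50.4, 59.1 and 44.6 FPKM (-1.08 ± 0.25), and Chil4, a relative of Chil3 whose near-identical sequence may share fragments with it, was at 98.2, 33.7 and 73.1 FPKM and then 142.02, 119.5, 184 and 147.9 FPKM (1.22 ± 0.28).

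Pre-symptomatic replicate 1 was also the highest library for the lymphoid precursor gene Vpreb3, which was at 167, 0 and 0 FPKM before symptoms and 0.33, 15.9, 1.67 and 3.30 FPKM at end stage. Granule genes of immature neutrophils had another low library, since Elane was at 1222, 1418 and 30.8 FPKM and then 416, 671, 982 and 1381 FPKM. Pre-symptomatic replicate 3 was the lowest of the 7 for Elane and for Prtn3 (4.54 FPKM).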
